A study of Homo sapiens with 15 samples.

Results

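The comparison sets the ARPE19-derived line MekDD against the line it is read from, T53D4, and uses 6 of the 15 libraries of the series, 3 per line, matched by replicate number. ARPE19 is an established human retinal pigment epithelial line. MekDD is labelled as carrying 3 plasmids, one with hTERT and p53DD (a dominant negative p53 fragment), one with cyclin D1 and CDK4R24C (a CDK4 mutant) and pBabe-Puro-MEK-DD (an active MEK), and is called weakly transformed. T53D4 is labelled as carrying the first pair of plasmids and no oncogene, so hTERT, p53DD, cyclin D1 and CDK4R24C belong to both lines. There is 1 line per construct, the labels do not say whether it is a clone, and each replicate is RNA from a separately thawed vial passaged 2 times, so the p-values measure the spread between vials of these lines. RasV12 (active H-RAS) and AKTmyr (membrane-bound AKT), labelled with the same 2 plasmids plus their oncogene, with 3 libraries each, were used to test whether a gene differed between MekDD and these lines.

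MEK is the kinase that phosphorylates and activates ERK, the last kinase of the RAS, RAF, MEK and ERK cascade. Active ERK phosphorylates ETS and AP-1 transcription factors, and among the genes it induces are its own brakes, the dual-specificity phosphatases of the DUSP family and the Sprouty and SPRED proteins. In epithelial cells the pathway is also known for inducing proteases that cut the matrix and for lowering epithelial characters.

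Values are CPM, each gene's reads scaled to the library's total of reads on tested genes times its TMM normalization factor. That factor was 0.958 to 1.06 in the libraries of these lines. Triplets are replicates 1, 2 and 3. Libraries held 22.90 to 36.95 M gene reads in MekDD and 20.63 to 44.60 M in T53D4. Fold changes are log2 of MekDD over T53D4 from edgeR's quasi-likelihood test with the replicate number as a block. A gene is called, or said to have risen or fallen, when its Benjamini-Hochberg adjusted p is under 0.05 over the 13588 genes tested. A MekDD library and its same-numbered T53D4 library can share a shift, so libraries of a called gene may overlap across replicate numbers.

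The transfected sequences were examined first. Reads on the MEK construct stood at 607, 1017 and 636 CPM in MekDD, against 0.0685, 0.0217 and 0.0476 CPM in T53D4, that is 74514 reads in MekDD and 4 reads in T53D4. The cell's own MAP2K1, the gene for MEK1, stood at 178, 111 and 140.3 CPM in MekDD, against 144, 90.3 and 139 CPM in T53D4 (log2 fold change 0.21, SE 0.16, adjusted p = 0.457). The TERT construct had 517, 444 and 402 CPM in MekDD, against 849, 750.0 and 1039 CPM in T53D4, and the murine p53DD construct had 42.0, 28.0 and 27.0 CPM in MekDD, against 73.8, 49.3 and 89.1 CPM in T53D4. Both were lower in MekDD (log2 fold change -0.94, SE 0.19, adjusted p = 0.00706 for TERT; log2 fold change -1.09, SE 0.22, adjusted p = 0.00654 for p53DD, with the construct rows kept in the fit). The second plasmid did not show in either line as its label states. The ratio of construct reads to reads on the CCND1 gene was 0.241 in MekDD and 0.239 in T53D4, against 0.232 in ARPE19, which is labelled as not transfected, and 0.748 in RasV12 and 0.800 in AKTmyr. For CDK4 the ratio was 1.10 in MekDD and 0.979 in T53D4, against 1.06 in ARPE19, 1.40 in RasV12 and 1.33 in AKTmyr. The libraries labelled T53D4 and MekDD are called T53D4 and MekDD for short, and whether they hold the cyclin D1 and CDK4R24C plasmid cannot be read from these counts.

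Of the tissue's own markers, OTX2, PAX6 and MITF, transcription factors of the pigment epithelium, were present in both lines. RLBP1, BEST1, TYR, TYRP1 and PMEL, also set as markers, are not described here. Of 27 listed eye field and pigment epithelium genes, the 25 with reads summed to 2128 to 2526 CPM in MekDD and 2718 to 3049 CPM in T53D4. MITF stood at 40.3, 67.4 and 88.9 CPM in MekDD, against 66.1, 107 and 105 CPM in T53D4 and was not called (adjusted p = 0.093), and OTX2 at 60.1, 74.1 and 87.1 CPM in MekDD, against 44.2, 79.2 and 69.9 CPM in T53D4 (adjusted p = 0.458). RPE65, the visual cycle isomerase, had 4 reads in MekDD and 0 in T53D4, so the defining enzyme of mature pigment epithelium was at or near 0 in both. Several defining markers of other cell types were also at or near 0, with PTPRC (leukocytes) at 5 and 4 reads, PECAM1 (endothelium) at 8 and 0, DCN (fibroblasts) at 0 and 1, KRT5 (keratinocytes) at 0 and 0 and SOX10 (melanocytes and glia) at 2 and 4, each over the 3 libraries of MekDD and of T53D4. Other listed markers had more reads. Fibroblast markers summed to 25.5 to 55.1 CPM in MekDD and 82.7 to 116 CPM in T53D4. In the same order, keratinocyte markers summed to 32.0 to 40.4 and 35.5 to 49.2 CPM. Neuron and glia markers summed to 10.5 to 38.3 and 20.7 to 116 CPM. Endothelial markers summed to 1.93 to 3.15 and 1.99 to 2.29 CPM, and melanocyte markers to 5.30 to 8.83 and 7.72 to 10.1 CPM. The 7 immune markers with reads in the table, of 11 listed, summed to 137 to 197 CPM in MekDD and 92.5 to 185 CPM in T53D4, nearly all from CD68, a lysosomal protein (131, 159 and 192 CPM in MekDD, against 84.0, 162 and 181 CPM in T53D4; adjusted p = 0.453). ITGAM, an integrin of myeloid cells, was called lower, with 5 reads in MekDD and 78 in T53D4 (log2 fold change -3.82, adjusted p = 0.00269). ITGAM was not called without MekDD replicate 1 or without the replicate block (adjusted p 0.0531 to 0.0716). In bulk RNA, fewer cells of a type and less RNA per cell cannot be told apart.

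Of the genes tested, 734 were higher in MekDD (5.40%) and 831 were lower (6.12%), 1565 in either direction (11.5%). Counts called within the gene lists below are to be read against these shares. At least 2-fold changes made up 301 of the rises and 426 of the falls, and the median log2 fold change of all genes was 0.00. Leaving out MekDD replicate 1, 2 or 3 gave 427, 351 and 675 higher genes and 409, 365 and 852 lower genes. Leaving out T53D4 replicate 1, 2 or 3 gave 481, 399 and 424 higher genes and 567, 442 and 480 lower genes. A fit with no block called 303 higher and 374 lower genes, and each of them was also called with it. Over all genes tested, the libraries of the 2 lines did not overlap at 3256 of 13588. The 15 largest rises and 15 largest falls were picked among such genes, so their lack of overlap is no further support.

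**Figure D1:**
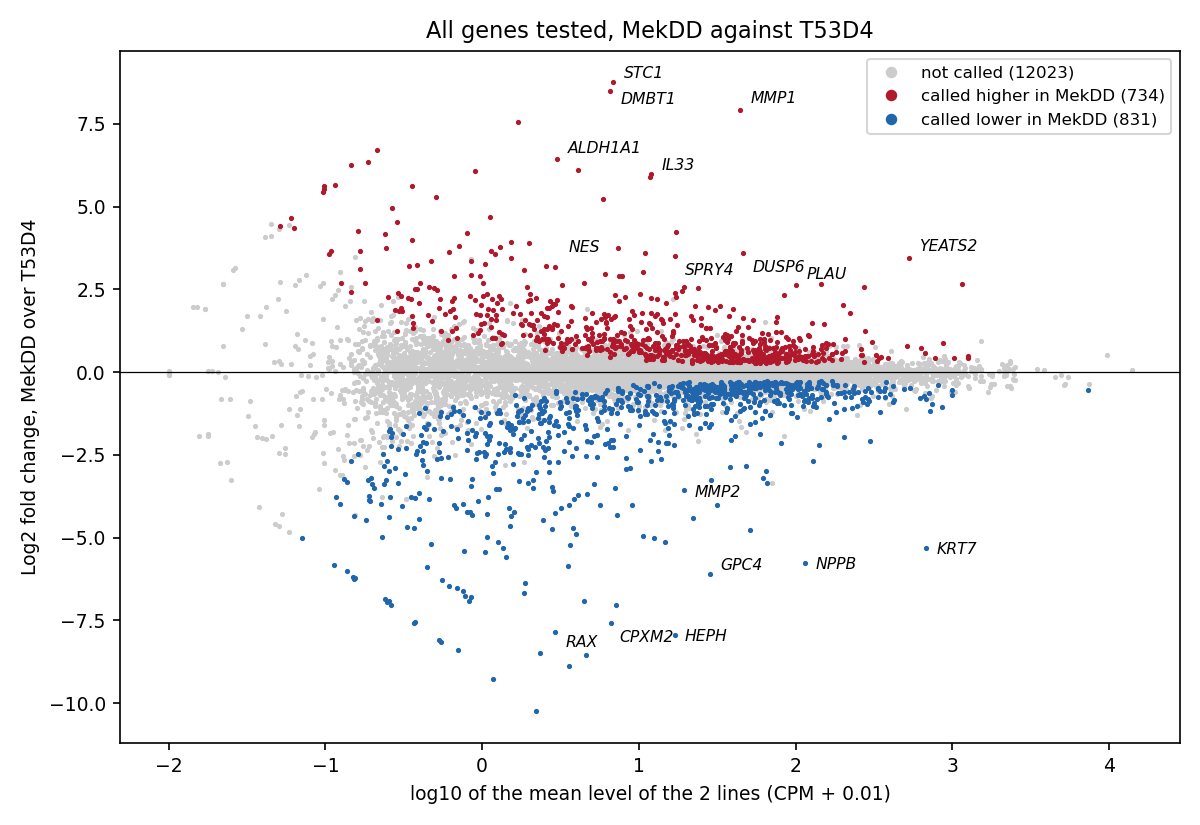
Each point is a gene, with the log10 of its mean level in the 2 lines (CPM + 0.01) across and the log2 fold change of MekDD over T53D4 upward; red points are the 734 genes called higher in MekDD, blue points the 831 called lower and grey points the rest. STC1, DMBT1 and MMP1 lie highest among the labelled genes, YEATS2 and KRT7 stand apart at high levels, and HEPH lies lowest among the labelled genes.

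Several genes that ERK induces as its own brakes were higher in MekDD. Printed here are 250 bases before the RefSeq start (GRCh38.p14) of DUSP6 and SPRY2, feedback inhibitors that rose, of MMP10, a protease gene that rose, and of IVL, a gene that fell, since 2 of them hold the motif of AP-1, a factor that ERK acts on. Capitals mark TGANTCA, bound by AP-1, and GGAAGT, the core bound by ETS factors, searched on both strands.
DUSP6 (chr12:89352502-89352751, minus strand): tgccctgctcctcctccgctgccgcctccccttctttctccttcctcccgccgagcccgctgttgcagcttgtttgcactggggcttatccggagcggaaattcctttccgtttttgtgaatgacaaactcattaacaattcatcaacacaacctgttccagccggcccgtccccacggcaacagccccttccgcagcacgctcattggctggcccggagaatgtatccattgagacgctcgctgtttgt
SPRY2 (chr13:80341127-80341376, minus strand): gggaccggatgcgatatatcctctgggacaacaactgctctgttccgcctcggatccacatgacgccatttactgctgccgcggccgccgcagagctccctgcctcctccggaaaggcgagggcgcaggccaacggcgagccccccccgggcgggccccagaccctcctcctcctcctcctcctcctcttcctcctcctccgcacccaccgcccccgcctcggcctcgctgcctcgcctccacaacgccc
MMP10 (chr11:102780629-102780878, minus strand): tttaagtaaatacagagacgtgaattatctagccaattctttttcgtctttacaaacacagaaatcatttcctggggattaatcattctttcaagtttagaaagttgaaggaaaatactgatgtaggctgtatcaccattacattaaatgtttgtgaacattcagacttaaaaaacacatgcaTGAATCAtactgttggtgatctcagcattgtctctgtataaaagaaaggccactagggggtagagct
IVL (chr1:152908296-152908545, plus strand): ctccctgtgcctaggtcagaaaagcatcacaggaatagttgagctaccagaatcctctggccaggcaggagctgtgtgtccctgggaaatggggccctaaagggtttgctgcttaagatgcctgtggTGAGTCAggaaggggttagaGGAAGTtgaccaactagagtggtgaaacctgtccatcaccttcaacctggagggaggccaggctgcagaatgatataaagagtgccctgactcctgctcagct
The AP-1 motif stood 67 bases before the start of MMP10 and 123 bases before that of IVL, and the ETS core 103 bases before that of IVL. Neither motif is in the windows of DUSP6 and SPRY2. Over all 35116 RefSeq promoters, 6.57% hold the AP-1 motif and 19.5% the ETS core. RefSeq promoters were matched for 573 of the 734 genes called higher, of which 4.36% hold the AP-1 motif and 16.6% the ETS core. For 631 of the 831 genes called lower the shares were 4.12% and 18.4%, and for 10892 of the tested genes 3.99% and 23.1%. Among the promoters of tested genes, 8 matches of the AP-1 motif overlapped a match of the ETS core.

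DUSP6, the phosphatase specific to ERK, had 85.3, 96.9 and 71.8 CPM in MekDD, against 8.15, 6.27 and 6.57 CPM in T53D4 (log2 fold change 3.60, SE 0.20, adjusted p = 4.83e-07). The lowest MekDD library lay above the highest T53D4 library, and the call held in every alternative tried. SPRY4, a Sprouty inhibitor of the cascade, had 34.8, 33.9 and 24.3 CPM in MekDD, against 4.32, 2.56 and 1.57 CPM in T53D4 (log2 fold change 3.51, SE 0.20, adjusted p = 5.35e-07), again with no overlap and with the call kept in every alternative. SPRY2 followed with 62.9, 80.5 and 71.6 CPM in MekDD, against 30.4, 28.4 and 25.8 CPM in T53D4 (log2 fold change 1.35, SE 0.13, adjusted p = 3.76e-05), and it kept its call as well. SPRED1 rose by less, with 88.4, 70.1 and 77.5 CPM in MekDD, against 48.8, 41.6 and 57.0 CPM in T53D4 (log2 fold change 0.69, SE 0.15, adjusted p = 0.0106), and SPRED3 had 12.4, 13.6 and 10.5 CPM in MekDD, against 8.32, 7.16 and 6.91 CPM in T53D4 (log2 fold change 0.71, SE 0.16, adjusted p = 0.0157). SPRY1 was lowest in replicate 2 of both lines, at 10.9, 3.74 and 5.54 CPM in MekDD, against 6.92, 1.22 and 1.81 CPM in T53D4 (log2 fold change 1.19, SE 0.34, adjusted p = 0.0424). Of 6 Sprouty and SPRED genes tested, 5 rose and 0 fell with a median log2 fold change of 0.95, and SPRED2 was the one not called (log2 fold change 0.12, adjusted p = 0.49). The count of rises was 2 without MekDD replicate 1 or 2 or T53D4 replicate 2 and 3 without T53D4 replicate 3 or the replicate block. SPRED1 was not called without MekDD replicate 1 or 2 or T53D4 replicate 1 or 2 or without the replicate block (adjusted p 0.0504 to 0.0563). SPRED3 was not called without MekDD replicate 1 or 2 or T53D4 replicate 2 or 3 (adjusted p 0.0531 to 0.0848). SPRY1 was not called without any 1 MekDD library or T53D4 replicate 2 or 3 or without the replicate block (adjusted p 0.0917 to 0.462).

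The phosphatases of the wider family moved both ways. Of 11 tested, 4 rose and 4 fell, with a median of -0.02. DUSP4, a nuclear phosphatase for ERK, had 83.1, 142 and 134 CPM in MekDD, against 41.1, 62.7 and 75.7 CPM in T53D4 (log2 fold change 1.00, SE 0.23, adjusted p = 0.0155), and DUSP5, another nuclear ERK phosphatase, had 62.2, 114 and 70.3 CPM in MekDD, against 32.1, 48.9 and 49.3 CPM in T53D4 (log2 fold change 0.91, SE 0.15, adjusted p = 0.00194). Both were above T53D4 in every library. DUSP1, which is an immediate early gene and also acts on stress kinases, fell to 117, 187 and 175 CPM in MekDD, against 376, 324 and 291 CPM in T53D4 (log2 fold change -1.02, SE 0.27, adjusted p = 0.027). DUSP10, which acts on p38 and JNK, rose (log2 fold change 0.62, adjusted p = 0.0324), and DUSP8, which also acts on JNK, DUSP14 and DUSP2, known from lymphocytes, fell, with log2 fold changes of -0.83, -0.46 and -1.22 (adjusted p = 0.00734, 0.0052 and 0.0432). Rises numbered 1 without the replicate block and 2 without MekDD replicate 2 or T53D4 replicate 1, and falls numbered 2 without MekDD replicate 1 or 2 or T53D4 replicate 1 or 2 or the replicate block. DUSP4 was not called without MekDD replicate 2 or T53D4 replicate 1 or 2 or without the replicate block (adjusted p 0.0571 to 0.0809). DUSP5 was not called without the replicate block (adjusted p = 0.0824). DUSP1 was not called without MekDD replicate 1 or 2 or any 1 T53D4 library (adjusted p 0.0676 to 0.114). DUSP2 was not called without MekDD replicate 1 or 2 or T53D4 replicate 1 or 2 or without the replicate block (adjusted p 0.126 to 0.193).

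**Figure D2:**
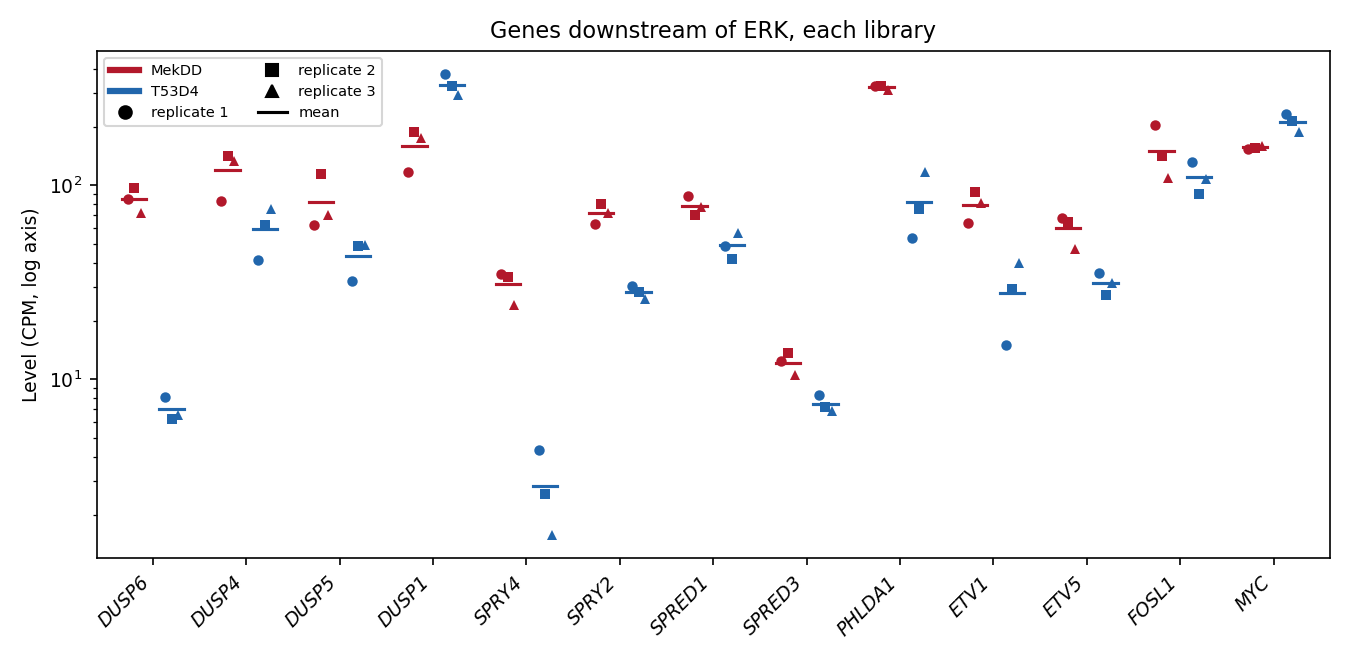
The level of 13 genes in each library is plotted on a log axis in CPM, MekDD in red left of T53D4 in blue; circles, squares and triangles are replicates 1, 2 and 3 and bars are means. DUSP6 and SPRY4 show the widest gaps, PHLDA1 and ETV1 lie apart as well, and DUSP1 and MYC are lower in MekDD.

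ETS factors and further output genes followed. ETV1, an ETS factor, had 64.2, 92.5 and 81.3 CPM in MekDD, against 15.1, 29.2 and 39.7 CPM in T53D4 (log2 fold change 1.56, SE 0.22, adjusted p = 0.000785). Its relative ETV5 had 67.7, 64.9 and 47.2 CPM in MekDD, against 35.2, 27.2 and 31.3 CPM in T53D4 (log2 fold change 0.94, SE 0.27, adjusted p = 0.0439), and ELK3, another ETS factor, rose with it (log2 fold change 0.76, adjusted p = 0.00672). FLI1, an ETS factor of blood and endothelium, had 0 reads in MekDD and 74 in T53D4, at least 24.4-fold lower at the floor of 3 reads over the line (adjusted p = 0.000453). Of 16 ETS factors, 5 rose and 1 fell, with a median of 0.04, the others that rose being EHF, at under 2 CPM in every library, and ELK4 (log2 fold change 0.32, adjusted p = 0.0323). The higher calls numbered 2 without MekDD replicate 1 or 2 or T53D4 replicate 2 or 3 or the replicate block. ETV5 was not called without MekDD replicate 1 or 2 or T53D4 replicate 2 or 3 or without the replicate block (adjusted p 0.0744 to 0.216). EHF was not called without MekDD replicate 1 or 2 or T53D4 replicate 2 or 3 or without the replicate block (adjusted p 0.0636 to 0.11).

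PHLDA1, a pleckstrin-homology protein long used as an ERK output gene, had 327, 325 and 309 CPM in MekDD, against 53.8, 75.9 and 118 CPM in T53D4 (log2 fold change 2.02, SE 0.23, adjusted p = 0.00016), and the same separation held for SLCO4A1, an organic anion transporter gene, with 53.9, 61.0 and 42.2 CPM in MekDD, against 14.6, 11.5 and 13.1 CPM in T53D4 (log2 fold change 2.00, SE 0.28, adjusted p = 0.000746). HMGA2, a chromatin protein, averaged 47.7 ± 10.7 CPM in MekDD and 13.7 ± 3.60 CPM in T53D4 (SD, n = 3 each), with no overlap (log2 fold change 1.87, SE 0.25, adjusted p = 0.000443). Of 17 such output genes, 6 rose and 0 fell, with a median of 0.72, PLAUR, KCNN4 and VGF completing the 6. VGF, a secreted neuropeptide precursor, rested on 17 reads in MekDD and 0 in T53D4, at least 5.74-fold higher at the floor. VGF was not called without MekDD replicate 2 or T53D4 replicate 2 (adjusted p 0.0585 to 0.0648). PLAUR was not called without the replicate block (adjusted p = 0.0817).

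The immediate early layer moved both ways, with 6 of 20 genes called, against 11.5% of all genes tested. FOSL1, the AP-1 subunit that sustained ERK activity induces, had 204, 141 and 109 CPM in MekDD, against 132, 90.6 and 107 CPM in T53D4 (log2 fold change 0.43, SE 0.16, adjusted p = 0.0958) and was not called. It was called on the 6 libraries alone and without MekDD replicate 3 (adjusted p = 0.0479 and 0.0368). MYC fell, at 154, 157 and 159.6 CPM in MekDD, against 233, 214 and 189 CPM in T53D4 (log2 fold change -0.42, SE 0.12, adjusted p = 0.0482). EGR1 (log2 fold change 0.66, adjusted p = 0.35), FOS (log2 fold change 0.95, adjusted p = 0.404) and JUN (log2 fold change -0.05, adjusted p = 0.832) were not called. Of 20 genes of this layer, 4 rose and 2 fell, with a median of -0.01. The risers were EGR2, EGR3, KLF2 and IER2, of which EGR3 had 54 reads in MekDD and 2 in T53D4 (27.3-fold, 95% interval 7.21 to 232, counting error only). KLF2, a zinc finger factor, had 27.1, 21.9 and 18.9 CPM in MekDD, against 17.2, 6.36 and 7.96 CPM in T53D4 (log2 fold change 1.19, SE 0.26, adjusted p = 0.0123), and ATF3, a stress-induced factor, fell (log2 fold change -0.83, adjusted p = 0.00585). The count of rises was 2 without MekDD replicate 2 or T53D4 replicate 2 or 3 or the replicate block, and that of falls 0 without the replicate block and 1 without MekDD replicate 1 or 2 or any 1 T53D4 library. MYC was not called without MekDD replicate 1 or 2 or any 1 T53D4 library, without the replicate block or with no filter on low counts (adjusted p 0.0527 to 0.207). KLF2 was not called without MekDD replicate 2 or T53D4 replicate 2 or without the replicate block (adjusted p 0.0529 to 0.121). IER2 was not called without any 1 MekDD library or T53D4 replicate 2 or 3, without the replicate block or with no filter on low counts (adjusted p 0.0526 to 0.581). EGR2 was not called without T53D4 replicate 3 (adjusted p = 0.0624). ATF3 was not called without the replicate block (adjusted p = 0.145).

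Upstream, of 25 genes from RAS to ERK, 1 rose, against 11.5% of all genes tested called in either direction. This was RASA1, which switches RAS off, at 108, 83.6 and 48.1 CPM in MekDD, against 43.5, 41.1 and 33.2 CPM in T53D4 (log2 fold change 0.99, SE 0.16, adjusted p = 0.00191), and its call held in every alternative. Among 12 EGF ligands, receptors and regulators 3 rose and 1 fell, with a median of -0.06. TGFA, an EGF receptor ligand, was high in replicate 1 of both lines, at 147, 51.4 and 55.7 CPM in MekDD, against 62.2, 26.4 and 33.1 CPM in T53D4 (log2 fold change 1.01, SE 0.24, adjusted p = 0.0174), and ERRFI1, an inhibitor of the receptor, rose (log2 fold change 0.78, adjusted p = 0.0275). EGFR itself, the receptor, was lower (log2 fold change -0.48, adjusted p = 0.0243). BTC, another ligand, completed the rises, whose count was 0 without MekDD replicate 1 or T53D4 replicate 2 or the replicate block and 1 without MekDD replicate 2 or T53D4 replicate 3. TGFA was not called without MekDD replicate 1 or T53D4 replicate 2 or without the replicate block (adjusted p 0.0844 to 0.174). ERRFI1 was not called without MekDD replicate 1 or 2 or T53D4 replicate 2 or 3 or without the replicate block (adjusted p 0.0973 to 0.136). EGFR was not called without any 1 MekDD library or T53D4 replicate 2 or 3 or without the replicate block (adjusted p 0.0577 to 0.191).

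Among proteases that cut matrix, members moved far in both directions. MMP1, interstitial collagenase, had 53.2, 48.3 and 162 CPM in MekDD, against 0.308, 0.195 and 0.524 CPM in T53D4 (log2 fold change 7.93, SE 0.34, adjusted p = 4.46e-08). Replicate 3 was the highest in both lines, the lines did not overlap, and the call held in every alternative. MMP10, stromelysin 2, rested on 19 reads in MekDD and 0 in T53D4, at least 6.41-fold higher at the floor (adjusted p = 0.04999). TIMP1, an inhibitor of these proteases, had 308, 169 and 189.8 CPM in MekDD, against 69.7, 85.2 and 82.7 CPM in T53D4 (log2 fold change 1.46, SE 0.25, adjusted p = 0.00245). MMP2, gelatinase A, moved the other way, at 4.49, 2.34 and 2.24 CPM in MekDD, against 52.0, 33.2 and 22.9 CPM in T53D4 (log2 fold change -3.57, SE 0.31, adjusted p = 1.86e-05), and MMP15, a membrane-bound member, fell as well (log2 fold change -2.13, adjusted p = 0.0135). Of 14 metalloproteinases and inhibitors, 4 rose and 3 fell, with a median of -0.12, MMP16 rising and TIMP2 falling among the rest (log2 fold changes 0.78 and -0.72). The count of falls was 1 without MekDD replicate 1 or 2 or T53D4 replicate 2. MMP10 was not called without MekDD replicate 1 or 2 or any 1 T53D4 library or without the replicate block (adjusted p 0.0938 to 0.12). MMP15 was not called without MekDD replicate 1 or 2 or T53D4 replicate 2 (adjusted p 0.0524 to 0.0591).

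Both plasminogen activators and the urokinase receptor rose. PLAU, the urokinase that activates plasminogen, had 259.9, 197 and 68.9 CPM in MekDD, against 34.4, 26.7 and 18.2 CPM in T53D4 (log2 fold change 2.63, SE 0.31, adjusted p = 0.00018). Every MekDD library was above every T53D4 library, although MekDD replicate 3 was well under the other two. PLAUR, the urokinase receptor, had 90.2, 68.0 and 47.1 CPM in MekDD, against 51.7, 29.2 and 32.3 CPM in T53D4 (log2 fold change 0.87, SE 0.14, adjusted p = 0.00179), with MekDD replicate 3 below T53D4 replicate 1. PLAT, the tissue-type activator, had 67.8, 47.7 and 18.1 CPM in MekDD, against 10.1, 9.33 and 11.9 CPM in T53D4 (log2 fold change 1.97, SE 0.40, adjusted p = 0.00694). The serpin SERPINE2, which inhibits both activators, also rose (log2 fold change 1.33, adjusted p = 0.0238). Of 11 genes, 5 rose, with SERPINF1 the fifth, and SERPINB9, a granzyme inhibitor, fell (log2 fold change -1.46, adjusted p = 0.00195), with a median of 0.27. Rises numbered 3 without MekDD replicate 2 or the replicate block. PLAT was not called without MekDD replicate 2 (adjusted p = 0.0501). SERPINE2 was not called without MekDD replicate 1 or 2 or T53D4 replicate 2 or 3 or without the replicate block (adjusted p 0.0678 to 0.148).

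Among cytokines, members of the interleukin 1 family rose. IL33, an alarmin of epithelial nuclei, had 17.5, 21.0 and 32.2 CPM in MekDD, against 0.205, 0.282 and 0.715 CPM in T53D4 (log2 fold change 5.98, SE 0.45, adjusted p = 4.37e-06), and its call held in every alternative. IL1B, the secreted interleukin 1, had 3.65, 5.09 and 7.10 CPM in MekDD, against 0.890, 0.412 and 0.333 CPM in T53D4 (log2 fold change 3.17, SE 0.82, adjusted p = 0.0265), and IL1RAP, a co-receptor, rose with overlapping libraries (log2 fold change 0.54, adjusted p = 0.037). So 3 of 7 rose and 0 fell, with a median of -0.24, the other 4 having negative values. The higher calls numbered 1 without MekDD replicate 1 or T53D4 replicate 2 or 3. Of 24 chemokines, IL6 family members and NF-kB genes, 0 rose and CCL2, a monocyte chemokine, fell, at 39.9, 6.74 and 8.54 CPM in MekDD, against 103, 58.3 and 28.3 CPM in T53D4 (log2 fold change -1.94, SE 0.36, adjusted p = 0.00453). CXCL8, a neutrophil chemokine (log2 fold change -1.25, adjusted p = 0.447), and IL6 (log2 fold change -1.45, adjusted p = 0.306) were not called. IL1B was not called without MekDD replicate 1 or 2 or T53D4 replicate 2 or 3 (adjusted p 0.0575 to 0.116). IL1RAP was not called without MekDD replicate 1 or any 1 T53D4 library or without the replicate block (adjusted p 0.0618 to 0.201). CCL2 was not called without the replicate block (adjusted p = 0.172).

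The title of the series concerns mitosis, so the mitotic genes were read next. BUB1, a checkpoint kinase, had 141, 139 and 104 CPM in MekDD, against 117, 112 and 132 CPM in T53D4 (log2 fold change 0.11, SE 0.24, adjusted p = 0.833), with the lines overlapping. TTK, the kinase that starts the spindle checkpoint, had 79.0, 78.1 and 68.7 CPM in MekDD, against 55.5, 67.3 and 79.8 CPM in T53D4 (log2 fold change 0.19, SE 0.26, adjusted p = 0.711), and KNL1, the kinetochore scaffold that recruits BUB1, had 61.5, 57.6 and 48.9 CPM in MekDD, against 37.1, 41.1 and 47.2 CPM in T53D4 (log2 fold change 0.46, SE 0.25, adjusted p = 0.288). KNL1 was above T53D4 in all 3 MekDD libraries, and it was called on the 6 libraries alone (adjusted p = 0.0493). AURKA (log2 fold change -0.12, adjusted p = 0.828) and AURKB (log2 fold change -0.12, adjusted p = 0.76), the Aurora kinases, were not called. By edgeR, 0 of 37 kinetochore and checkpoint genes were called (1 at an unadjusted p under 0.05), 0 of 41 mitotic kinase, spindle and cytokinesis genes (0 at that level) and 0 of 38 DNA replication genes (1 at that level). Over all 13588 genes tested, 3560 were at that level. Their medians were 0.09, 0.02 and 0.01, and by DESeq2 0 genes of these 3 lists were called. On the 6 libraries alone KNL1 was the 1 kinetochore gene called, while 1 mitotic kinase, spindle or cytokinesis gene and 2 DNA replication genes were called lower. The self-test recovered 81% of simulated 2-fold changes. These were set in genes of at least 1 CPM, drawn without regard to list, with no replicate shift in the 6 libraries. The self-test does not measure what would be recovered in these lists, below that level or at smaller changes. The median SE was 0.206, 0.213 and 0.228 in the 3 lists, against 0.146 over all genes tested.

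CDKN1A, the p21 inhibitor, had 204, 152 and 139.8 CPM in MekDD, against 216, 194 and 164 CPM in T53D4 (log2 fold change -0.22, SE 0.23, adjusted p = 0.615), and CDKN2A had 26.0, 19.6 and 24.6 CPM in MekDD, against 25.2, 16.7 and 16.8 CPM in T53D4 (log2 fold change 0.28, SE 0.12, adjusted p = 0.144). By edgeR 0 of 27 p53 targets were called, with 22 of 27 values negative and a median of -0.14. At an unadjusted p under 0.05 there were 8 of 27, against 3560 of all 13588 genes tested. DESeq2 called 1, and the 6 libraries alone gave 1 higher and 4 lower. Among 19 cyclins, CDKs and inhibitors, a list that leaves out CCND1 and CDK4, CDKN2B, the p15 inhibitor, was the 1 called (log2 fold change 0.91, adjusted p = 0.0475). The genes CCND1 and CDK4 can share reads with the constructs and are uncertain. CCND1 had 1530.2, 997 and 831 CPM in MekDD, against 749, 482 and 599 CPM in T53D4 (log2 fold change 0.87, SE 0.22, adjusted p = 0.0219) and CDK4 had 113, 131 and 143 CPM in MekDD, against 87.7, 88.9 and 106 CPM in T53D4 (log2 fold change 0.45, SE 0.10, adjusted p = 0.0132). CDKN2B was not called without MekDD replicate 2 or 3 or T53D4 replicate 2 or 3, without the replicate block or on the 6 libraries alone (adjusted p 0.0526 to 0.241). CCND1 was not called without MekDD replicate 1 or 2 or T53D4 replicate 2 or 3 (adjusted p 0.0565 to 0.136). CDK4 was not called without MekDD replicate 2 or T53D4 replicate 2 or without the replicate block (adjusted p 0.0714 to 0.0977).

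Epithelial genes mostly fell where they were called. KRT7, a simple-epithelium keratin (ENSG00000135480, chromosome 12, 52232520 to 52252186 in the deposited annotation, hg38), had 40.1, 29.9 and 28.6 CPM in MekDD, against 1610.0, 1436 and 943 CPM in T53D4 (log2 fold change -5.31, SE 0.44, adjusted p = 1.26e-05). Each T53D4 library was far above every MekDD library, and the call held in every alternative. The keratin pair KRT8 and KRT18, present in all simple epithelia, fell by less (log2 fold change -0.53, adjusted p = 0.0352 and log2 fold change -0.57, adjusted p = 0.0489). IVL, involucrin of the cornified envelope, had 0.0312, 0.203 and 0.380 CPM in MekDD, against 7.29, 9.12 and 4.81 CPM in T53D4 (log2 fold change -5.24, SE 0.95, adjusted p = 0.00389). CDH1, E-cadherin, was near 0 in both lines, with 2 reads in MekDD and 33 in T53D4 (16.3-fold, 95% interval 4.17 to 140.1, higher in T53D4, counting error only). LAMA3, a chain of the basement membrane laminin of epithelia, had 4.27, 6.84 and 11.9 CPM in MekDD, against 14.7, 25.7 and 25.1 CPM in T53D4 (log2 fold change -1.54, SE 0.37, adjusted p = 0.0178), and CRB3, a polarity gene, and DSC3 and PKP2, desmosome genes, fell as well. In all, 0 of 30 junction and keratin genes rose and 8 fell, with a median of -0.31. The count of falls was 1 without MekDD replicate 1, 2 without MekDD replicate 2 or T53D4 replicate 2 or the replicate block, 3 without T53D4 replicate 3 and 4 without T53D4 replicate 1. The keratinocyte markers, IVL among them, summed to 32.0 to 40.4 CPM in MekDD and 35.5 to 49.2 CPM in T53D4, with KRT5 at 0 in both. Of 6 tested, IVL fell and KRT15, a keratin of basal epithelial cells, rose to 4.83, 4.10 and 4.06 CPM in MekDD, against 1.61, 1.35 and 1.91 CPM in T53D4 (log2 fold change 1.43, SE 0.32, adjusted p = 0.0136). KRT15 was not called without MekDD replicate 2 or T53D4 replicate 1 or without the replicate block (adjusted p 0.0676 to 0.082). The part of these markers in the falls was not tested. KRT18 was not called without any 1 MekDD library or any 1 T53D4 library, without the replicate block or with no filter on low counts (adjusted p 0.0509 to 0.254). CDH1 was not called without MekDD replicate 1 or without the replicate block (adjusted p 0.0594 to 0.0618). LAMA3 was not called without MekDD replicate 1 or 2 or T53D4 replicate 2 or 3 (adjusted p 0.076 to 0.0947). CRB3 was not called without MekDD replicate 1 or 2 or T53D4 replicate 2 or 3 or without the replicate block (adjusted p 0.0962 to 0.139). DSC3 was not called without MekDD replicate 1 or 2 or T53D4 replicate 1 or 2 or without the replicate block (adjusted p 0.0576 to 0.1).

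Of 15 mesenchymal genes 3 were called, against 11.5% of all genes tested. ZEB1, a repressor of epithelial genes, had 62.7, 63.7 and 39.1 CPM in MekDD, against 35.0, 34.9 and 26.7 CPM in T53D4 (log2 fold change 0.76, SE 0.11, adjusted p = 0.000622), VIM (vimentin) was not called (log2 fold change 0.53, adjusted p = 0.0736), and CDH2 (N-cadherin) was not called (log2 fold change 0.04, adjusted p = 0.926). CDH11, a mesenchymal cadherin, and CDH13, a membrane-anchored one, fell (log2 fold change -0.95, adjusted p = 0.00106 and log2 fold change -3.01, adjusted p = 5.78e-05). So 1 gene of that list rose and 2 fell, and of 18 contractile genes 0 rose and 1 fell, TGFB1I1 (log2 fold change -0.79, adjusted p = 0.00817). TGFB1I1 was not called without the replicate block (adjusted p = 0.186).

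Of 22 eye field and pigment epithelium genes, 3 rose and 3 fell, with a median of 0.14. The count of rises was 1 without MekDD replicate 3 or T53D4 replicate 3 or the replicate block and that of falls 1 without MekDD replicate 1 or 2 or any 1 T53D4 library or the replicate block. RAX, an eye field homeobox gene, had 2 reads in MekDD and 547 in T53D4 (270.1-fold, 95% interval 74.4 to 2236, higher in T53D4, counting error only). It was at 0.0351 ± 0.0108 CPM in RasV12 and 0.0237 ± 0.0222 in AKTmyr (SD, n = 3 each), against 6.73 ± 2.16 in ARPE19. All 3 oncogene lines were near 0. SERPINF1, the pigment epithelium-derived factor, had 25.8, 24.9 and 28.1 CPM in MekDD, against 7.74, 9.01 and 6.96 CPM in T53D4 (log2 fold change 1.76, SE 0.21, adjusted p = 0.000184), and LRAT, a visual cycle enzyme, rose (log2 fold change 0.89, adjusted p = 0.0187). ALDH1A1, which makes retinoic acid, had 1.56, 4.10 and 12.1 CPM in MekDD, against 0, 0.0651 and 0.0953 CPM in T53D4 (log2 fold change 6.43, SE 0.50, adjusted p = 5.91e-06). ALDH1A1 in MekDD differed widely between its libraries but stayed above all T53D4 libraries. LRAT was not called without MekDD replicate 3 or T53D4 replicate 1 or 3 or without the replicate block (adjusted p 0.0578 to 0.214).

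**Figure D3:**
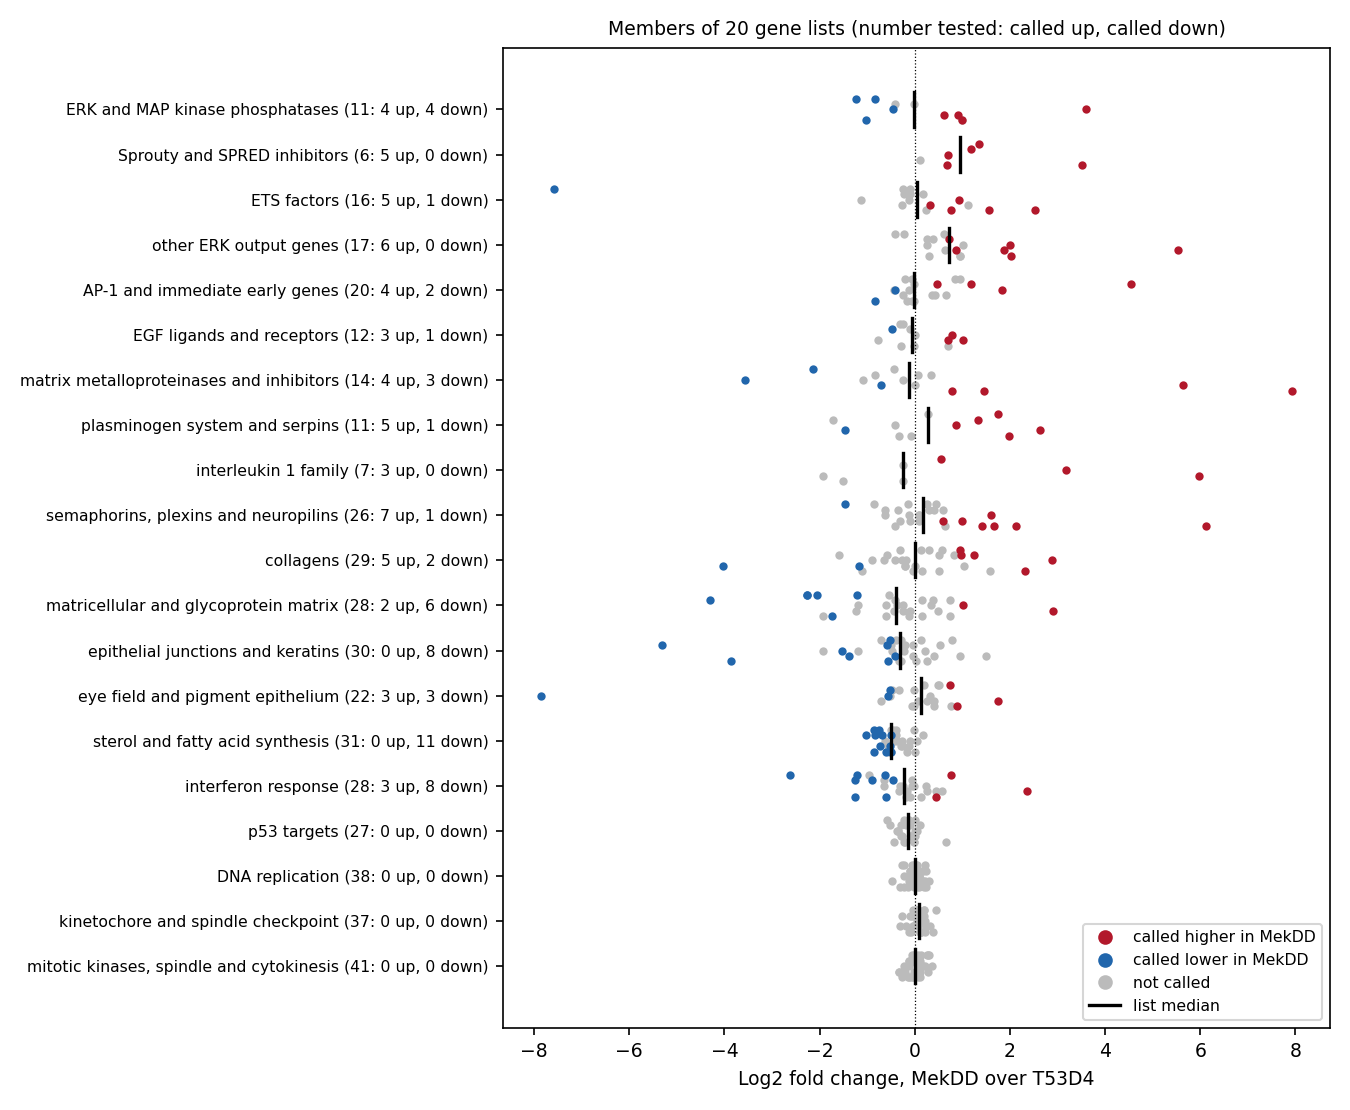
Each row is a gene list and each point a tested member, placed by its log2 fold change of MekDD over T53D4; red points were called higher, blue points called lower, grey points not called, and the black bar is the list's median. The Sprouty and SPRED and the further ERK output rows lie to the right, the sterol row to the left, and the DNA replication, kinetochore and mitotic rows are narrow and hold 0 called genes.

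The genes of sterol and fatty acid synthesis that were called fell. HMGCS1, which makes HMG-CoA, had 76.9, 90.4 and 83.7 CPM in MekDD, against 206, 175 and 144 CPM in T53D4 (log2 fold change -1.03, SE 0.23, adjusted p = 0.0143). MVD and DHCR7, further enzymes of the route, had log2 fold changes of -0.86 and -0.86 (adjusted p = 0.00261 and 0.00465). FASN, the fatty acid synthase, had 222, 310.2 and 296 CPM in MekDD, against 517, 381 and 506 CPM in T53D4 (log2 fold change -0.75, SE 0.17, adjusted p = 0.0142), and SREBF2, the factor that drives the sterol genes, fell too (log2 fold change -0.50, adjusted p = 0.0151). Of 31 sterol and fatty acid genes, 0 rose and 11 fell, 28 of 31 values were negative, and the median was -0.49, against 0.00 over all genes. The count of falls was 5 without MekDD replicate 1 and 7 without any 1 T53D4 library or the replicate block. DHCR7 was not called without the replicate block (adjusted p = 0.0658). HMGCS1 was not called without MekDD replicate 1 or T53D4 replicate 2 (adjusted p 0.0708 to 0.0721). FASN was not called without MekDD replicate 1 or T53D4 replicate 1 or 3 (adjusted p 0.0585 to 0.0679).

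Matrix genes went both ways, in lists read against 11.5% of all genes tested called in either direction. COL5A1, a fibrillar collagen chain, was high in replicate 1 of both lines, at 6.89, 0.967 and 1.99 CPM in MekDD, against 139, 19.0 and 21.2 CPM in T53D4 (log2 fold change -4.02, SE 0.38, adjusted p = 3.5e-05), and COL13A1, a transmembrane collagen, had 22.9, 11.8 and 6.47 CPM in MekDD, against 3.46, 0.890 and 1.43 CPM in T53D4 (log2 fold change 2.90, SE 0.31, adjusted p = 8.53e-05). Of 29 collagens and cross-linking enzymes 5 rose and 2 fell, with a median of 0.00. Rises numbered 1 without MekDD replicate 2 or T53D4 replicate 2 or 3 or the replicate block, 2 without MekDD replicate 1 and 3 without MekDD replicate 3, and falls numbered 1 without MekDD replicate 1 or 2 or any 1 T53D4 library or the replicate block. Among 28 matricellular and glycoprotein genes 2 rose and 6 fell, with a median of -0.39. The higher calls numbered 0 without the replicate block and 1 without any 1 MekDD library or T53D4 replicate 1 or 3, and falls numbered 3 without MekDD replicate 1 or 2. SPP1, osteopontin, rose (log2 fold change 2.91, adjusted p = 0.00465), and THBS2, thrombospondin 2, and FBLN2, fibulin 2, fell (log2 fold change -2.26, adjusted p = 0.00167 and log2 fold change -2.26, adjusted p = 0.00711). Of 25 laminins and integrins, 1 rose, ITGA2, the collagen receptor subunit (log2 fold change 1.46, adjusted p = 0.0057), and LAMA3 and LAMA5 fell. The called share of that list was near the share over all genes tested. The fibroblast markers summed to 25.5 to 55.1 CPM in MekDD and 82.7 to 116 CPM in T53D4, 0 of 4 tested were called, and DCN was at 0 in MekDD; their part in the matrix values was not tested. SPP1 was not called without the replicate block (adjusted p = 0.0573).

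Guidance receptors and their ligands mostly rose where they were called. PLXNA4, a semaphorin receptor, had 9.13, 10.4 and 4.65 CPM in MekDD, against 0.137, 0.0651 and 0.191 CPM in T53D4 (log2 fold change 6.11, SE 0.59, adjusted p = 3.76e-05), and SEMA3A, a secreted semaphorin, had 13.7, 12.5 and 9.98 CPM in MekDD, against 2.77, 2.65 and 2.81 CPM in T53D4 (log2 fold change 2.14, SE 0.30, adjusted p = 0.000636). NRP1, the co-receptor for semaphorins and VEGF, had 107, 129.9 and 107 CPM in MekDD, against 24.0, 41.1 and 50.4 CPM in T53D4 (log2 fold change 1.66, SE 0.21, adjusted p = 0.000297). Of 26 such genes 7 rose and 1 fell, SEMA3E (log2 fold change -1.47, adjusted p = 0.000465), with a median of 0.18. The rises were 6 to 8 when 1 library was left out and 6 without the replicate block.

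Further secreted signals and surface enzymes changed, in lists read against 11.5% of all genes tested called in either direction. BMP2, a bone morphogenetic protein, had 37.1, 33.8 and 28.2 CPM in MekDD, against 8.60, 10.6 and 11.4 CPM in T53D4 (log2 fold change 1.70, SE 0.17, adjusted p = 4.51e-05), one of 3 rises and 1 fall among 26 TGF-beta and BMP genes, and the count of rises was 1 without MekDD replicate 1 or 2 or T53D4 replicate 2 or 3, and that of falls 0 without MekDD replicate 1 or 2 or any 1 T53D4 library or the replicate block and 3 without MekDD replicate 3. SFRP1, a WNT antagonist, had 289, 278 and 470.1 CPM in MekDD, against 112, 89.0 and 97.9 CPM in T53D4 (log2 fold change 1.78, SE 0.25, adjusted p = 0.000622), among 3 rises and 1 fall in 17 WNT genes, and the count of rises was 1 without MekDD replicate 2 or any 1 T53D4 library, and that of falls 0 without MekDD replicate 1 or T53D4 replicate 2 or 3 or the replicate block and 3 without MekDD replicate 3. STC1, stanniocalcin, had 1288 reads in MekDD and 3 in T53D4 (435-fold, 95% interval 148 to 2111, counting error only), in a list of 20 angiogenic factors with 2 rises and 3 falls. The count of angiogenic rises was 1 without MekDD replicate 1 or 2 or T53D4 replicate 2 or 3 or the replicate block, and that of falls 0 without MekDD replicate 1 or 2 or T53D4 replicate 2 and 1 without MekDD replicate 3 or T53D4 replicate 1 or 3. NT5E, the CD73 ecto-nucleotidase, had 2787, 1841 and 1229 CPM in MekDD, against 291, 260.0 and 448 CPM in T53D4 (log2 fold change 2.66, SE 0.43, adjusted p = 0.00173), one of 2 rises among 21 YAP and TEAD targets, where 1 fell, WWC1, while DESeq2 called 3 and 5. The count of falls in that list was 0 without MekDD replicate 1 or 2 or T53D4 replicate 3, 2 without T53D4 replicate 1 and 3 without MekDD replicate 3. Of 28 interferon genes 3 rose and 8 fell, with IFI44L higher (log2 fold change 2.37, adjusted p = 0.000885) and OAS1 lower (log2 fold change -2.61, adjusted p = 0.000389). The count of rises was 1 without MekDD replicate 2 or T53D4 replicate 1 or 2 or the replicate block, and that of falls 4 without MekDD replicate 2 or T53D4 replicate 2 or the replicate block and 5 without MekDD replicate 1 or T53D4 replicate 1.

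The other lists are given by their counts, against 11.5% of all genes called in either direction. Of 13 IGF and insulin genes 2 rose and 1 fell, of 16 Eph receptors and ephrins 1 rose, and of 31 glycolysis and hypoxia genes 1 rose. The Eph count was 0 without MekDD replicate 1 or 2 or any 1 T53D4 library or the replicate block, and the glycolysis count 0 without MekDD replicate 2 or any 1 T53D4 library or the replicate block, with 4 by DESeq2 and 7 on the 6 libraries alone. Of 16 BCL2 family genes 3 rose and 1 fell, among them MCL1, a survival factor (log2 fold change 0.51, adjusted p = 0.0072), with 0 called without the replicate block. By edgeR 0 were called of 28 ATF4 targets (4 at an unadjusted p under 0.05, 1 by DESeq2), of 27 ribosome biogenesis genes (1 and 1) and of 18 class I presentation genes (0 and 0). Over all genes tested, 3560 of 13588 had an unadjusted p under 0.05. Of 22 NRF2 targets 2 fell, of 19 FOXO genes 2 rose and 2 fell, and of 19 retinoid and aldehyde dehydrogenase genes 2 rose and 1 fell. The count of NRF2 falls was 0 without MekDD replicate 2 or the replicate block, 1 without MekDD replicate 1 or any 1 T53D4 library and 4 without MekDD replicate 3, and that of BCL2 rises 0 without MekDD replicate 2 or the replicate block and 1 without T53D4 replicate 1 or 2. The count of FOXO rises was 0 without the replicate block and 1 without any 1 MekDD library or any 1 T53D4 library, and that of IGF rises 1 without any 1 MekDD library or any 1 T53D4 library or the replicate block. The count of FOXO falls was 1 without MekDD replicate 1 or 2 or any 1 T53D4 library or the replicate block, that of IGF falls 0 without any 1 MekDD library or any 1 T53D4 library or the replicate block, and that of retinoid falls 0 without MekDD replicate 1 or 2 or T53D4 replicate 2 and 2 without MekDD replicate 3. MCL1 was not called without MekDD replicate 2 or without the replicate block (adjusted p 0.0548 to 0.198).

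The rest of the largest rises and falls lie outside these lists or were not yet described. KIAA1549L had 32.1, 22.9 and 13.9 CPM in MekDD, against 0.582, 0.304 and 0.238 CPM in T53D4 (log2 fold change 5.91, SE 0.31, adjusted p = 2.95e-07), and NGEF, a guanine nucleotide exchange factor of neurons, had 8.07, 13.4 and 12.9 CPM in MekDD, against 0.0685, 0.304 and 0.619 CPM in T53D4 (log2 fold change 5.23, SE 0.44, adjusted p = 1.26e-05). NES, nestin, an intermediate filament of progenitor cells, had 18.0, 13.2 and 9.72 CPM in MekDD, against 2.12, 0.412 and 0.810 CPM in T53D4 (log2 fold change 3.76, SE 0.36, adjusted p = 3.76e-05), and CALB2, the calcium-binding protein calretinin, had 18.0, 33.2 and 9.93 CPM in MekDD, against 2.23, 1.26 and 1.29 CPM in T53D4 (log2 fold change 3.61, SE 0.60, adjusted p = 0.00226). ADAMTSL1 rose as well (log2 fold change 4.24, adjusted p = 1.58e-06). DMBT1, a secreted scavenger receptor, had 1332 reads in MekDD and 3 in T53D4 (449.7-fold, 95% interval 154 to 2183, counting error only), and its MekDD libraries ran from 1.69 to 25.7 CPM. For each of these genes the lowest MekDD library was above the highest T53D4 library, which was a condition of naming them. The neuron and glia markers summed to 10.5 to 38.3 CPM in MekDD and 20.7 to 116 CPM in T53D4, and their part in these values was not tested. Among 4 tested, MAP2 fell (log2 fold change -1.19, adjusted p = 0.034) and SNAP25 rose (adjusted p = 0.00316). SNAP25 kept its call in every alternative. MAP2 was not called without MekDD replicate 1 or 2 or T53D4 replicate 2 or 3 or without the replicate block (adjusted p 0.0931 to 0.347).

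Among the falls, NPPB, the B-type natriuretic peptide, had 7.36, 1.40 and 3.51 CPM in MekDD, against 436, 119 and 123 CPM in T53D4 (log2 fold change -5.77, SE 0.30, adjusted p = 2.95e-07). GPC4, a heparan sulfate glypican, had 0.343, 0.941 and 1.27 CPM in MekDD, against 47.6, 62.1 and 58.0 CPM in T53D4 (log2 fold change -6.09, SE 0.39, adjusted p = 1.17e-06), and HEPH, a copper ferroxidase, had 0.0312, 0.203 and 0.169 CPM in MekDD, against 40.2, 35.2 and 25.4 CPM in T53D4 (log2 fold change -7.94, SE 0.34, adjusted p = 4.46e-08). Neither had a MekDD library near the lowest T53D4 library. ITM2A had 2 reads in MekDD and 848 in T53D4 (419-fold, 95% interval 116 to 3463, higher in T53D4, counting error only). KIF1A, a kinesin of synaptic vesicle transport, had 1.06, 0.814 and 0.338 CPM in MekDD, against 35.4, 20.7 and 16.9 CPM in T53D4 (log2 fold change -5.00, SE 0.20, adjusted p = 2.44e-08). CPXM2, KLK11, ADAMTS2, UPK3B and TMEM151A were also lower, with log2 fold changes of -7.58, -6.92, -5.86, -5.14 and -4.95. All calls named here held in every alternative.

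MekDD was then set against the other oncogene lines for the genes above. MekDD and RasV12 differed at 3574 genes (26.3%) and MekDD and AKTmyr at 5470 (40.3%). These tests share the MekDD libraries with the comparison above, so they say where MekDD stands between lines and are no second support for it. The lines also differed in the second plasmid, with cyclin D1 construct reads at 269.6 ± 57.6 CPM in MekDD, 2351 ± 121 in RasV12 and 858 ± 132 in AKTmyr (SD, n = 3 each). CDK4R24C construct reads were at 142 ± 13.7, 2381 ± 23.4 and 1006 ± 89.8 CPM in the same order, so oncogene and second plasmid cannot be told apart in these contrasts. DUSP6 stood at 84.6 ± 12.6 CPM in MekDD and 351 ± 50.6 in RasV12 (log2 fold change -2.05, adjusted p = 1.07e-05; SD, n = 3 each), and at 3.83 ± 0.611 in AKTmyr (log2 fold change 4.48, adjusted p = 1.17e-07). SPRY4 had the same order, 31.0 ± 5.80 CPM in MekDD, 111 ± 33.7 in RasV12 (log2 fold change -1.82, adjusted p = 1.84e-05) and 0.548 ± 0.219 in AKTmyr (log2 fold change 5.80, adjusted p = 3.56e-08). MMP1 was at 87.9 ± 64.4 CPM in MekDD, 3499 ± 1483 in RasV12 (log2 fold change -5.46, adjusted p = 9.77e-08) and 0.243 ± 0.216 in AKTmyr (log2 fold change 8.44, adjusted p = 3.56e-08), and IL33 at 23.6 ± 7.64, 509.7 ± 389 (log2 fold change -4.26, adjusted p = 3.26e-06) and 1.26 ± 0.327 (log2 fold change 4.06, adjusted p = 9.38e-06). For these 4 genes MekDD lay below RasV12 and above AKTmyr, T53D4 and ARPE19.

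Other genes did not follow that order. KRT7 was at 32.9 ± 6.32 CPM in MekDD, against 1123 ± 367 in RasV12 (log2 fold change -5.16, adjusted p = 7.25e-06) and 1537 ± 962 in AKTmyr (log2 fold change -5.47, adjusted p = 4.94e-06). IVL was lower in MekDD than in RasV12 (log2 fold change -4.75, adjusted p = 0.00319) and AKTmyr (log2 fold change -4.31, adjusted p = 0.00428), and NES was higher than in RasV12 (log2 fold change 1.76, adjusted p = 0.00155) and AKTmyr (log2 fold change 4.53, adjusted p = 6.02e-06). SERPINF1 was also higher in MekDD than in RasV12 (log2 fold change 1.55, adjusted p = 0.000179) and in AKTmyr (log2 fold change 3.64, adjusted p = 5.56e-07). GPC4 was near 0 in both MekDD and RasV12, whose difference was not called (log2 fold change 0.22, adjusted p = 0.784), and stood at 104 ± 18.9 CPM in AKTmyr (log2 fold change -6.98, adjusted p = 2.25e-07). HMGCS1 differed from AKTmyr (log2 fold change -1.26, adjusted p = 0.00152) and was not called against RasV12 (log2 fold change -0.04, adjusted p = 0.921). For the genes of these 2 paragraphs the calls against RasV12 and AKTmyr held without each library in turn and under the other alternatives.

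**Figure D4:**
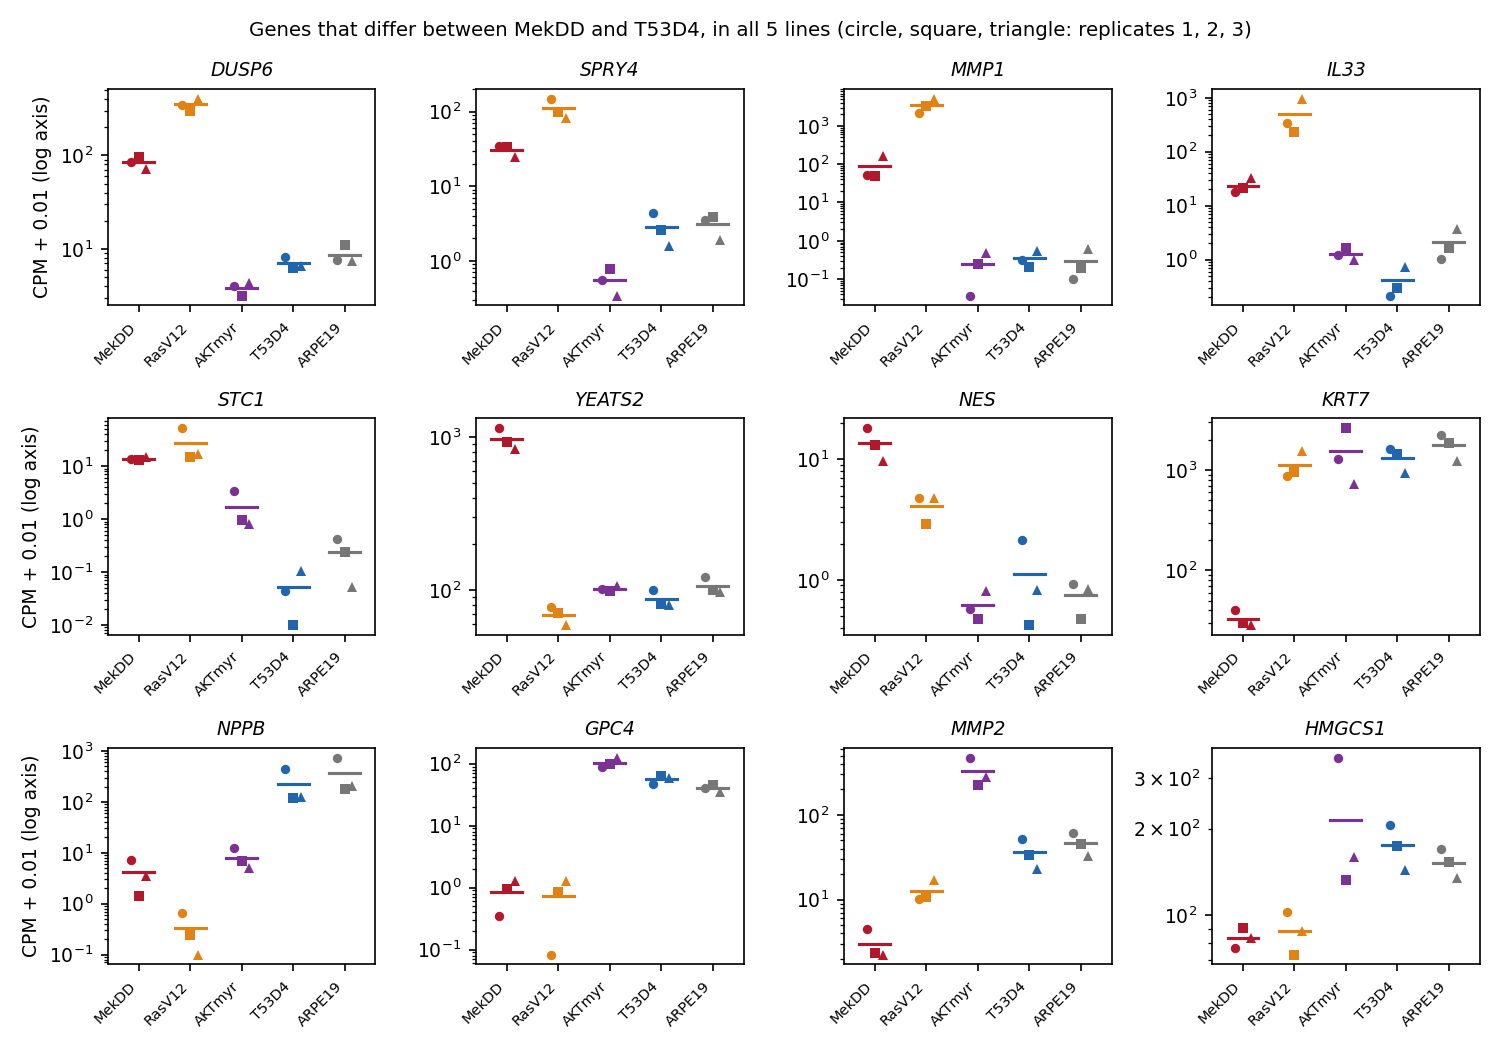
Each panel shows a gene in CPM + 0.01 on a log axis, with MekDD, RasV12, AKTmyr, T53D4 and ARPE19 from left to right, circles, squares and triangles for replicates 1, 2 and 3 and bars for means. DUSP6, SPRY4, MMP1 and IL33 are highest in RasV12 with MekDD next, YEATS2 is high and KRT7 low in MekDD next to the other 4 lines, and GPC4 is low in MekDD and RasV12.

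YEATS2, a histone acetyl-lysine reader of an acetyltransferase complex, was the gene with the lowest p of the comparison. YEATS2 (ENSG00000163872, chromosome 3, 183697797 to 183812624) had 1137, 922 and 829.6 CPM in MekDD, against 101, 81.2 and 80.3 CPM in T53D4 (log2 fold change 3.46, SE 0.11, adjusted p = 7.24e-09). It stood at 963 ± 158 CPM in MekDD, 69.2 ± 9.43 in RasV12 (log2 fold change 3.79, adjusted p = 1.52e-09), 102 ± 3.57 in AKTmyr (log2 fold change 3.22, adjusted p = 1.51e-08) and 107 ± 13.6 in ARPE19 (SD, n = 3 each). The 12 libraries of the other lines lay close together, and all 3 MekDD libraries lay far above them. The nearest measured genes were not called. KLHL24, next on one side, had 19.7, 22.3 and 31.2 CPM in MekDD, against 19.3, 25.2 and 21.8 CPM in T53D4 (log2 fold change 0.12, SE 0.28, adjusted p = 0.841), and PARL, next on the other, had 5.67, 6.56 and 7.99 CPM in MekDD, against 6.40, 6.16 and 7.58 CPM in T53D4 (log2 fold change -0.01, SE 0.14, adjusted p = 0.982). Of the 12 neighbours read, 6 on each side, AP2M1 was the 1 called (log2 fold change -0.40, SE 0.12, adjusted p = 0.0499). DNAJC19, the farthest, lay 2708 kb away, and genes under the 5 CPM cut were not read.

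**Figure D5:**
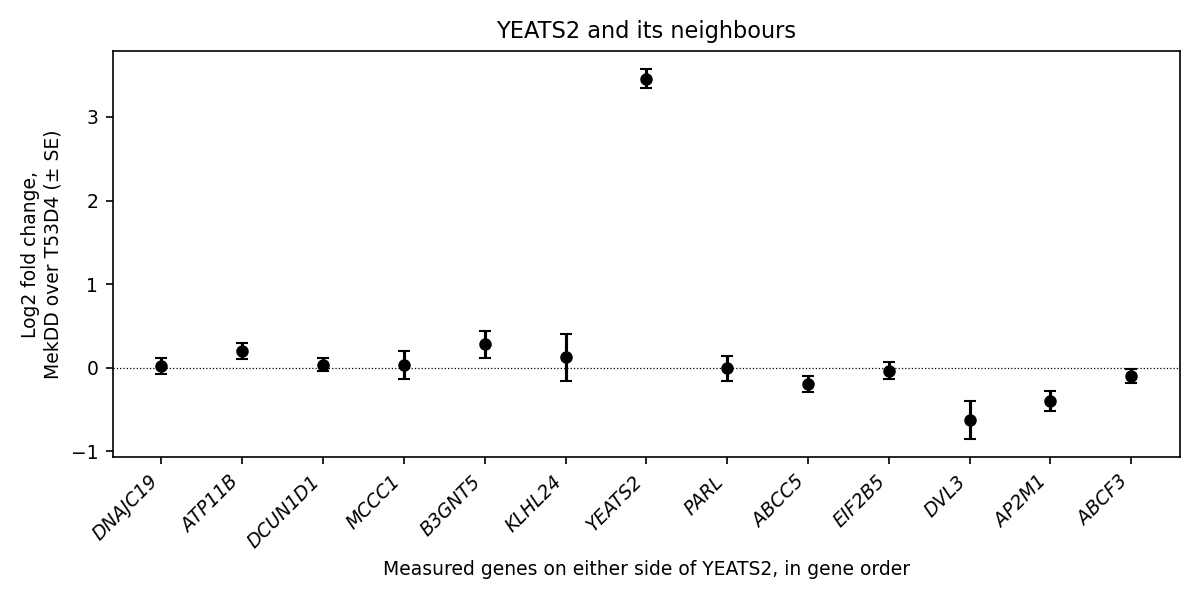
The log2 fold change of MekDD over T53D4 with its SE is plotted for YEATS2 and the 6 measured genes on each side of it in gene order, which is not to scale. YEATS2 lies at 3.46 and its 12 neighbours between -0.62 and 0.28.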

How the data were processed

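Poly(A) RNA was sequenced from 15 libraries of 5 lines with a directional kit, per the labels' protocols. The authors deposited whole-number counts of reads per gene, and these were tested. Tools named in the submitters' processing notes were DESeq2 1.28.1, SAMtools 1.9, fastp 0.20.0, deepTools 3.2.0, featureCounts 1.6.4 and HISAT2 2.1.0, and the build was hg38, with no role or setting given, and whether counting used strand is not stated. If it did not, reads of genes that overlap on opposite strands cannot be told apart, which touches PLAU, TIMP1, RASA1, NGEF, LAMA5, KRT18, ADAMTSL1 and COL4A2. KRT7 and ETV5 overlap a gene on the same strand, so strand cannot tell their reads apart whichever way counting was done. Deposited tables of normalised and log values were not used.

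The 7 construct rows and 12 chromosome Y genes were left out of the 15517 rows, and filterByExpr (minimum count 10) left 13588 genes. All 15 libraries were fitted with edgeR 4.0.16 (R 4.3.3, glmQLFit and glmQLFTest, TMM factors) with line and replicate number as terms and 8 residual degrees of freedom. The comparison was set to pair libraries by replicate number, so the block was in the main fit. Correlations were read between same-numbered libraries only. Same-numbered MekDD and T53D4 libraries deviated together from their group means (correlation 0.721, 0.635 and 0.543 over 10640 genes). The lowest such correlation between any lines was 0.224, 0.367 and 0.00323 for replicates 1, 2 and 3. The shared shift was thus weaker between some lines, while the replicate term was fitted over all of them. The test was tried on simulated counts, where the MekDD and T53D4 libraries had no replicate shift. It recovered 81% of 2-fold and 100% of 4-fold changes, which were set only in genes of at least 1 CPM. It called 4 unchanged genes, with 13466 genes, changed ones included, in the fit. A gene with 0 reads in a line was set to a floor of 3 reads over that line, and one with 1 to 3 reads is given as a ratio with a 95% exact binomial interval; reads have no molecular identifiers, so both cover counting error only. The fitted fold change of such a gene is no bound. In 5 lists 1 gene had 0 reads in a line, and the medians were the same with it at its bound.

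Genes named are the 7 transfected genes, 11 pathway and mitosis genes, the 15 largest rises and 15 largest falls among called genes whose lines did not overlap and whose higher mean was 5 CPM or more, and up to 5 called members of each of 48 lists. Members named outside this rule were chosen after their values were seen and have no alternatives. The lists and members were chosen with earlier results of these data known. Alternatives were no block, DESeq2 1.42.0 and its size factors, no filter, the 6 libraries alone, construct rows kept, and each library left out. Promoter sequences are RefSeq's. Some genes that the naming rule picks are not reported here.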

Additional observations from a re-analysis of the deposited data

Results flagged for a closer look

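Reads on 3 construct rows, which are outside the genes tested, were higher in every MekDD library than in every T53D4 library. The MEK construct averaged 753 ± 229 CPM in MekDD and 0.0459 ± 0.0234 in T53D4 (SD, n = 3 each). The cyclin D1 construct averaged 269.6 ± 57.6 CPM in MekDD and 146 ± 32.1 in T53D4 (log2 fold change 0.88, SE 0.21, adjusted p = 0.0192). The CDK4R24C construct averaged 142 ± 13.7 CPM in MekDD and 92.3 ± 11.8 in T53D4 (log2 fold change 0.63, SE 0.11, adjusted p = 0.00314). The last 2 sit beside the genes CCND1 and CDK4, which rose in the same libraries, and the H-RAS and AKT constructs were not called (log2 fold change 0.15, SE 0.24, adjusted p = 0.76 and log2 fold change -0.01, SE 0.21, adjusted p = 0.991).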

How the results depend on the processing

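The counts of called genes depend on the replicate block. Without it, 303 genes were higher and 374 lower in MekDD than in T53D4, 2098 differed between MekDD and RasV12, and 3543 between MekDD and AKTmyr. The 6 libraries of the pair alone, with the block, gave 1128 higher and 1303 lower. Leaving out 1 library gave 351 to 675 higher and 365 to 852 lower; for MekDD and RasV12 it gave 2422 to 3679 and for MekDD and AKTmyr 3858 to 5835, alternatives chosen after seeing the data. DESeq2 (961 and 1124), its size factors in edgeR (729 and 837), no low count filter (698 and 818) and construct rows kept (734 and 831) stayed within 1.5 times. Of 146 named genes called, 70 kept their call in all 12 alternatives and 76 lost it in at least 1, of 12 not called 3 gained one, and 0 reversed. Depth limits the genes given by their reads, where few reads in a line leave wide intervals.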

Other observations

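ITM2A, HEPH and GPC4, all among the 15 largest falls, lie on chromosome X, a feature seen after the values. Over the 347 chromosome X genes with at least 5 CPM, 5.19% were called higher and 5.48% lower, against 4.99% and 4.96% of the 10592 such genes on all chromosomes, and the chromosome's median log2 fold change was 0.03. HEPH had 0.135 ± 0.0912 CPM in MekDD, 0.390 ± 0.217 in RasV12, 52.7 ± 18.5 in AKTmyr, 33.6 ± 7.51 in T53D4 and 44.1 ± 17.3 in ARPE19 (SD, n = 3 each). ITM2A had 0.0245 ± 0.0219 CPM in MekDD and was listed at 0 in RasV12, against 9.37 ± 5.24 in AKTmyr, 9.13 ± 2.07 in T53D4 and 16.9 ± 6.19 in ARPE19.

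The 13 mitochondrially encoded genes had a median log2 fold change of -0.38 with 0 called, and their share of gene reads was 1.74% to 2.61% in MekDD and 2.55% to 2.80% in T53D4. KIF1A was low in the 3 oncogene lines, with 0.737 ± 0.367 CPM in MekDD, 0.374 ± 0.153 in RasV12 and 0.119 ± 0.0401 in AKTmyr, against 24.3 ± 9.80 in T53D4 and 21.5 ± 4.43 in ARPE19. POSTN, periostin, was low in MekDD and not in the other oncogene lines, with 0.619 ± 0.237 CPM in MekDD, 57.0 ± 52.0 in RasV12 (log2 fold change -6.65, adjusted p = 0.000247), 32.5 ± 23.6 in AKTmyr (log2 fold change -5.55, adjusted p = 0.000596) and 13.9 ± 11.8 in T53D4. POSTN was not called without MekDD replicate 1 (adjusted p = 0.0664).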
